A study of Mus musculus with 16 samples.

Results

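The comparison set 4 arrays of mouse small cell lung cancer cells carrying an Nfib vector against 4 arrays of the same cells without a vector, 8 of the 16 arrays in the study. The arrays were chosen by their labels. Small cell lung cancer is a neuroendocrine tumour of the lung, and 3583T3 and 3151T4 are cell lines derived from it in mice, each measured on 2 control and 2 Nfib arrays (replicates 1 and 2 are 3583T3, replicates 3 and 4 are 3151T4). Control cells were untransfected and unselected. Nfib cells had received the retroviral vector MSCV-Nfib-PGK-Neo, which encodes FLAG-tagged Nfib and a neomycin resistance gene, and were selected with G418. Another 4 arrays, of cells that carried MSCV-L-myc-PGK-Puro and were selected with puromycin, are called Mycl1 here and are used beside the main comparison because those cells also carried a vector and were selected. Nothing in the labels says that the 2 arrays of a line and vector were separate cultures, so the spread between them may be no more than technical. The tests weigh differences against that spread. In the main fit, which adds vector and line, the spread also holds differences between the lines in their response to a vector. With the 2 arrays of each line and vector averaged to 1 value, 18 genes were called by limma, against 900 with the arrays as replicates. Nor do the labels say whether a line was 1 clone.

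Nfib belongs to the nuclear factor I family of transcription factors, which bind DNA as dimers at a palindromic site and act in the development of lung and brain. The Nfib gene is amplified in a share of mouse and human small cell lung cancers, where it is known as an oncogene that promotes spread. Cultures started from tumours can also hold other cells of the tumour, such as macrophages and fibroblasts.

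All values are log2 array signals, in which a difference of 1 is a 2-fold change and a level near 2 is the floor of the background-corrected scale. Each difference comes with its SE from limma, in which cell line was a covariate and n = 4 arrays for every vector. The threshold for a call was an adjusted p of 0.05 (Benjamini-Hochberg over 8777 genes). Of these, 900 were called (10.3%), 465 higher with Nfib (5.3%) and 435 lower (4.96%). Array medians ran from 6.26 to 6.43. Some neuroendocrine markers were at or near the floor: over the 16 arrays Chga lay between 2.14 and 2.61, Syp did not exceed 3.19 and Neurod1 did not exceed 2.73. Others were not: Insm1 reached 5.51 and Scg2 4.99, and Eno2 lay between 6.40 and 8.68. Uchl1 lay between 7.88 and 11.39, and the brightest probe sets of Ncam1 and Cpe reached 12.37 and 12.88. The endothelial markers Pecam1 and Cdh5 did not exceed 2.94 and 3.61, and the airway secretory marker Scgb1a1 did not exceed 2.17. The leukocyte antigen gene Ptprc spanned 1.77 to 6.38. Of 3 macrophage and myeloid markers, Csf1r reached 8.60, whereas Adgre1 and Itgam did not exceed 3.93 and 2.61, also in control cells.

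None of the 4 Nfib probe sets was higher in Nfib cells. The brightest read 10.61 ± 0.11 (SD, n = 4) in control and 10.23 ± 0.29 (SD, n = 4) in Nfib cells, and the changes of the other 3 lay between -0.35 and -0.08. Whether they would read the vector's transcript was not tested, so they do not check the label. The Mycl probe set 1422087_at, which was high with the Mycl1 vector, read 2.28, 2.55 and 2.12 on 3 of the Nfib arrays, near the control arrays, and 10.22 on the array labelled 3583T3 Nfib replicate 2. That array therefore goes against its label. In the 3583T3 cells labelled with both vectors, Nfib+Mycl1, it read 11.05 on replicate 1 but 2.67 on replicate 2, which goes against its label as well. Whether the labels of these 2 arrays were exchanged was not tested, and both were kept as labelled. Without both arrays, 841 genes were called in Nfib versus control (457 higher, 384 lower), among them 18 interferon genes higher, 59 leukocyte genes lower and 10 fibroblast markers higher. The totals and the counts of the main gene lists below are also given without the array labelled 3583T3 Nfib replicate 2.

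A probe set of Mycn, another MYC family gene, separated every array with a vector from every array without one. Mycn probe set 1425923_at read 2.03, 2.56, 2.46 and 2.48 on the control arrays and 12.72, 12.51, 12.59 and 12.49 on the Nfib arrays, a change of 10.19 ± 0.18 (adjusted p = 2.4e-15). On the Mycl1 arrays it read 13.25, 12.63, 12.19 and 12.86. The groups with and without a vector did not overlap, and Nfib did not differ from Mycl1 (adjusted p = 0.57). The other 2 Mycn probe sets changed by 0.01 and -0.05 in Nfib cells. What in the vectors or the cells this probe set reports was not tested.

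Macrophage and other leukocyte genes had the largest fitted falls. Their levels with Nfib were often at or near the floor, so the size and order of these falls are limited by it. Of the genes below given array by array, Lyz1 in 3151T4 was higher on the Mycl1 arrays than on the Nfib arrays. C1qb was so in both lines, by less and near the floor. Lyz1, a lysozyme gene of myeloid cells, read 12.27, 12.62, 11.65 and 11.80 in control and 3.78, 2.73, 4.08 and 3.72 in Nfib cells (-8.50 ± 0.76, adjusted p = 5.4e-06). C1qb, a chain of complement C1q made by macrophages, read 11.08, 11.35, 9.35 and 9.35 against 2.14, 2.35, 2.21 and 2.09 (-8.08 ± 0.37). In both genes every Nfib array was far below every control array. Lyz2, the second lysozyme gene, fell by 7.70, the lysosomal protease gene Ctss by 6.10, Laptm5, a lysosomal membrane protein of blood cells, by 6.04, and Tyrobp, a signalling adaptor of myeloid cells, by 5.52. On the Mycl1 arrays Lyz1 read 3.80, 2.52, 7.62 and 6.05 and C1qb 2.52, 2.62, 3.42 and 2.88. None of the 6 genes differed between Nfib and Mycl1 (adjusted p from 0.18 to 0.67). These cultures are bulk samples, in which fewer leukocytes and less RNA per leukocyte cannot be told apart.

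The leukocyte list accounted for 64 of the 435 genes called lower and for 32 of the 50 largest falls. Of its 204 genes on the array 106 were tested, of which 64 fell, 5 rose and 37 did not pass, against 4.96% of all genes lower and 5.3% higher. Of the 106, 51 passed the filter on dim genes only through the control arrays, so that they had to be lower with a vector; with no filter 104 of the 204 were lower. The median change was -1.59 over the 106 and -0.59 over all 204, so the levels given next, over the 106, depend on the filter. The list's median level on the control arrays was 6.02 and 6.82 in 3583T3 and 4.83 and 4.76 in 3151T4. It was between 2.92 and 3.37 on the Nfib arrays and between 3.01 and 3.28 on the Mycl1 arrays. The list's summed signal was 14.50 to 15.40 on the control arrays and 13.75 to 13.88 on the Nfib arrays. The 64 genes that fell had a median level of 5.46 in control, 2.71 in Nfib and 2.84 in Mycl1 cells, and 2 of them, Slamf9 and Syk, were also lower than in Mycl1 cells. Cebpa, Il4ra, Sirpa, Thy1 and Tlr2 rose, of which Thy1 is also on the list of fibroblast markers below. Without the array labelled 3583T3 Nfib replicate 2, 60 fell and 5 rose; the 5 became 2 or 3 without any of the 4 control arrays or without 3151T4 Nfib replicate 3 or 4.

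**Figure D1:**
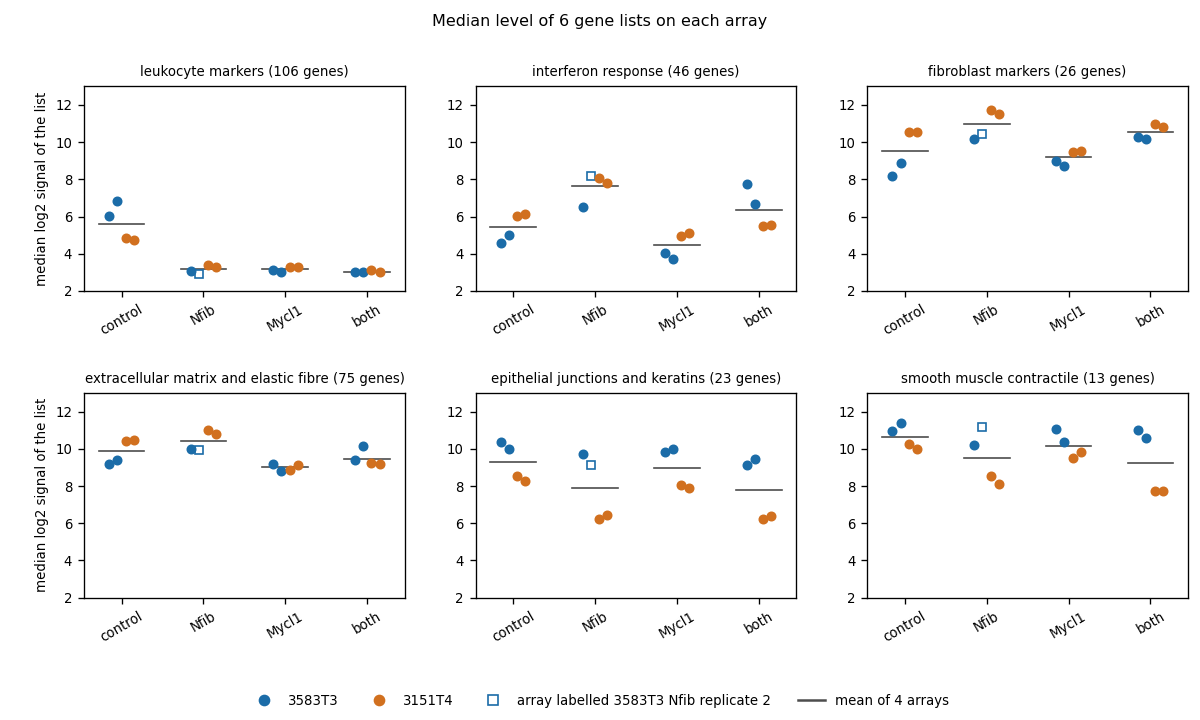
Median log2 signal of 6 gene lists on each of the 16 arrays (points; y axis) by vector (x axis; both is Nfib+Mycl1), with the mean of 4 arrays as a line. The leukocyte median lies between 4.76 and 6.82 on control arrays and between 2.92 and 3.37 on Nfib arrays, while the mean of the interferon response medians is highest for Nfib. The interferon median of 6.49 on 3583T3 Nfib replicate 1 is below those of both 3583T3 Nfib+Mycl1 arrays (6.69 and 7.76), and the highest, 8.20, is on the array labelled 3583T3 Nfib replicate 2. In 3151T4 the interferon medians of the Nfib+Mycl1 arrays (5.47 and 5.54) are below those of the control arrays (6.05 and 6.15).

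To set the changes of tumour cells apart from these, the calls outside the leukocyte list were sorted by a second contrast of the same fit, Nfib versus Mycl1, in which both sides carry a vector, with different selection drugs. That contrast called 1916 genes (21.8%). It shares the Nfib arrays with the first, so it sorts the calls and is no second evidence. Outside the leukocyte list 460 genes were higher and 371 lower than control, of which 244 and 181 changed at least 2-fold. Of the 460, 327 were also called between Nfib and Mycl1, and of the 371, 195 were. The 12 largest rises and the 12 largest falls described next were called in both contrasts with the same sign. The counts of gene lists cover all calls against control. For each such count the share of all genes was 5.3% higher and 4.96% lower.

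Matrix, airway and interferon-induced genes had the largest rises of that kind. Eln, which encodes elastin, the core of elastic fibres, read 2.48, 2.80, 2.94 and 3.14 on the control arrays and 6.83, 6.69, 9.81 and 9.64 on the Nfib arrays (5.40 ± 0.62, adjusted p = 5.9e-05), with 2.77 to 2.93 on the Mycl1 arrays. It rose from near the floor in both lines, to just above the array medians in 3583T3 and higher in 3151T4. Prelp, a leucine-rich repeat protein that anchors basement membranes to connective tissue, read 4.25, 4.47, 6.40 and 5.95 in control and 8.65, 8.76, 10.57 and 10.14 in Nfib cells (4.27 ± 0.60). The matricellular gene Ccn5 read 5.95, 6.69, 6.67 and 6.23 against 10.39, 10.43, 11.07 and 10.86 (4.31 ± 0.88). For Ccn5 the Mycl1 arrays split by line, with 8.83 and 8.59 in 3583T3 and 3.61 and 3.67 in 3151T4, on either side of the control level.

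Of 75 tested genes of the extracellular matrix and elastic fibres 18 rose, 5 fell and 52 did not pass, with a median change of 0.11 against 0.03 for all genes. The collagen VI genes Col6a2 (2.77 ± 0.34) and Col6a1 (1.29 ± 0.19) rose, and Mmp13 fell. Without the array labelled 3583T3 Nfib replicate 2, 14 rose and 4 fell. Without 3583T3 control replicate 1 or 2 the number that rose was 9, and without 3151T4 Nfib replicate 3 or 4 it was 11. The number that fell was 3 without 3151T4 control replicate 3 or 4. Among 26 fibroblast markers 13 rose, 0 fell and 13 did not pass, with a median change of 1.05. The 2 lists share several collagen and small proteoglycan genes. Prrx1, a mesenchymal homeobox gene, read 7.64, 8.18, 8.04 and 7.65 in control and 10.10, 10.80, 11.92 and 11.82 in Nfib cells (3.28 ± 0.53), and Twist2, a mesenchymal transcription factor gene, rose by 1.12 ± 0.20. The fibroblast median level was 8.19 and 8.86 in 3583T3 control cells and 10.15 and 10.43 in the Nfib cells of that line. In 3151T4 it was already 10.57 and 10.55 in control cells and was 11.72 and 11.51 with Nfib. The number of markers that rose was 7, 8 and 8 without 3583T3 control replicate 1, 3583T3 control replicate 2 or 3151T4 Nfib replicate 4, and 10 without the array labelled 3583T3 Nfib replicate 2. Whether fibroblasts in the cultures have a part in this was not tested.

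**Figure D2:**
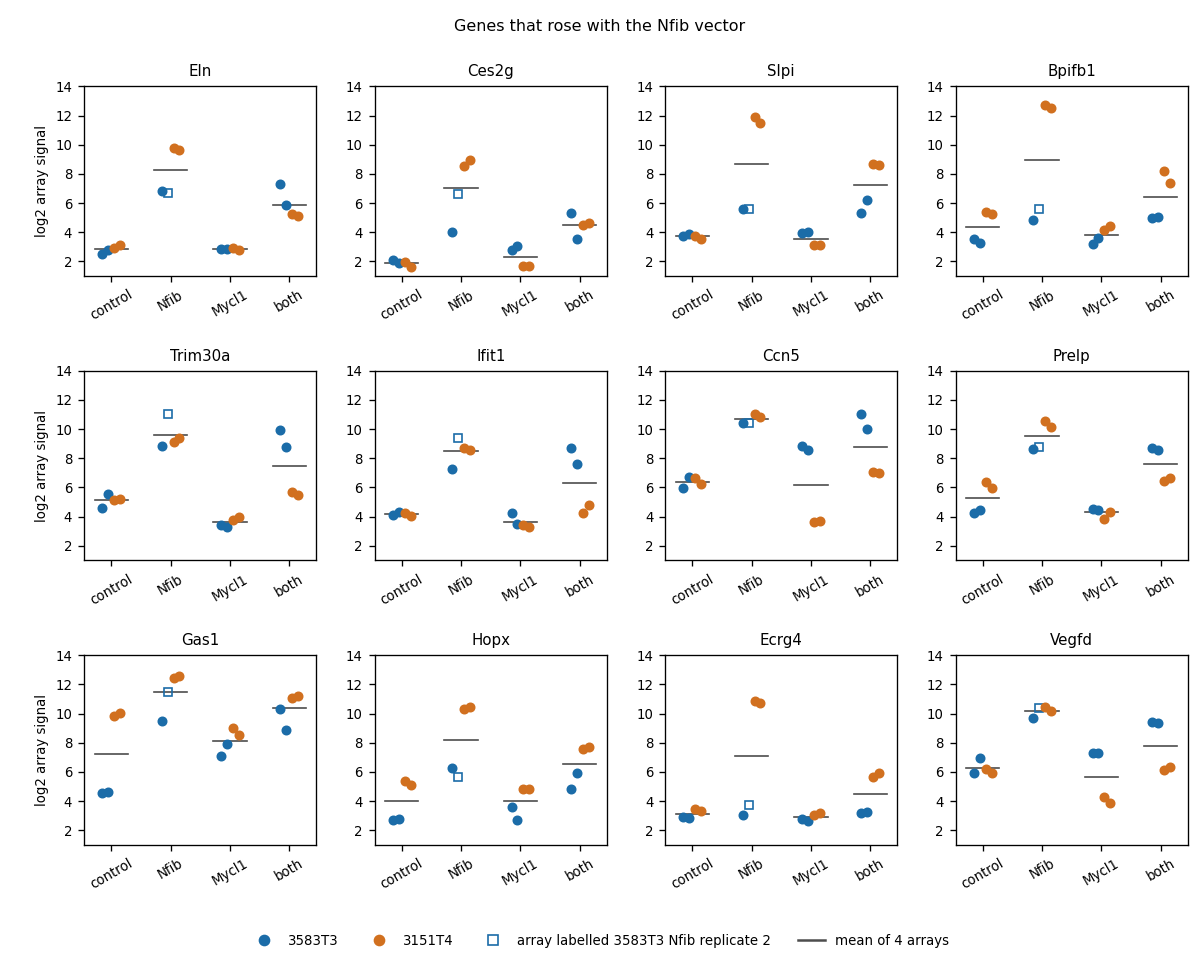
Log2 array signal (y axis) of the 12 largest rises outside the leukocyte list, among genes also called against Mycl1 and of the same sign in both lines, by vector (x axis; both is Nfib+Mycl1), 1 point per array, with the mean of 4 arrays as a line and the array labelled 3583T3 Nfib replicate 2 as an open square. Eln is between 2.48 and 3.14 on all control arrays and between 6.69 and 9.81 on all Nfib arrays, whereas Slpi, Bpifb1 and Ecrg4 are highest in 3151T4 with Nfib.

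Of 14 tested genes of lung and airway epithelium 4 rose, 1 fell and 9 did not pass, with a median change of 0.22. Hopx, an atypical homeodomain protein found in alveolar type I cells, read 2.71, 2.75, 5.39 and 5.09 in control and 6.24, 5.68, 10.31 and 10.42 in Nfib cells (4.18 ± 0.44, adjusted p = 2.4e-05). Slpi, a secreted inhibitor of leukocyte proteases, read 3.76, 3.89, 3.75 and 3.55 against 5.57, 5.62, 11.92 and 11.49 (4.92 ± 1.01). Bpifb1, a secreted airway protein, read 3.54, 3.28, 5.38 and 5.24 against 4.86, 5.60, 12.72 and 12.51. Every Nfib array exceeded the control arrays of its line in these 3 genes. The other gene that rose was the basal cell factor Trp63, and Foxa1, a pioneer factor of lung endoderm, fell by 0.58 (adjusted p = 0.0051).

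Several signalling genes were higher as well. Vegfd, a growth factor of lymphatic vessels, read 5.92, 6.92, 6.22 and 5.95 in control and 9.69, 10.38, 10.46 and 10.18 in Nfib cells (3.92 ± 0.61). Flt1, a receptor for the related factor VEGF-A, read 6.03, 5.49, 7.43 and 7.21 against 8.82, 8.46, 11.29 and 11.40 (3.45 ± 0.29). The defining endothelial markers Pecam1 and Cdh5 were near the floor on all arrays, and of 7 tested endothelial genes 2 rose, Flt1 and Plvap. Gas1, a membrane co-receptor of hedgehog ligands, read 4.54, 4.64, 9.82 and 10.05 in control and 9.49, 11.49, 12.46 and 12.57 in Nfib cells (4.24 ± 0.68). Of 33 Wnt and hedgehog genes 6 rose and 1 fell. They include Boc, another hedgehog co-receptor (2.63 ± 0.49), and Sfrp2, a secreted Wnt antagonist (1.25 ± 0.11), both higher, and Sfrp4, a second antagonist (-2.39 ± 0.53), lower. Ces2g, a carboxylesterase gene, rose by 5.15 ± 0.76. Ecrg4, which encodes a secreted peptide precursor, rose by 3.98 ± 1.03 (adjusted p = 0.023). Ecrg4 read 3.05 and 3.76 in 3583T3 with Nfib against 10.88 and 10.74 in 3151T4, and its call ended without any of the 4 control or Nfib arrays of 3151T4 (3.11 to 3.61).

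The interferon response was the list with the most calls outside leukocytes: of 46 genes tested 27 rose, 0 fell and 19 did not pass, with a median change of 1.39. Interferons signal through JAK kinases to STAT and IRF factors, and the IRF factors bind promoters at repeats of GAAA. Trim30a, an interferon-induced ubiquitin ligase family member, read 4.62, 5.52, 5.16 and 5.22 in control and 8.87, 11.06, 9.09 and 9.42 in Nfib cells (4.48 ± 0.70, adjusted p = 0.00091). Ifit1, which binds foreign RNA, read 4.11, 4.30, 4.25 and 4.07 against 7.29, 9.41, 8.70 and 8.58 (4.32 ± 0.67, adjusted p = 0.0008). The Mycl1 arrays were at or below the control level, between 3.29 and 3.99 for Trim30a and between 3.28 and 4.23 for Ifit1. Ifi204, a sensor of DNA, rose by 3.12 ± 0.48 and Trim25, a ubiquitin ligase of RNA sensing, by 1.12 ± 0.18. All 27 were also called higher than in Mycl1 cells. Of the 46, 8 would have failed the filter without the Nfib arrays, and with no filter 25 of 50 rose. The number that rose was 14 without 3583T3 control replicate 1 and 17 without 3151T4 Nfib replicate 3.

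Promoters of the genes that rose are shown because 12 of the 18 with a promoter in the RefSeq table (66.7%; the set has 27 genes) held the interferon element, which is the letters GAAA, any 2 bases and GAAA again. It was read on both strands from 250 bases before to 50 after the start; 3.99% of 27025 genes with a promoter in the table and 54.3% of 35 interferon list genes tested held it. Capitals mark the element, and runs merge overlapping matches. A match is a description of these letters only. The stretches are 5′ to 3′ on the gene's strand, from GRCm38.p6.
Ifit1, chr19:34640770-34640828, plus strand: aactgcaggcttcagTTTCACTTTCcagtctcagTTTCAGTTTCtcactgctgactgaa
Ifit3, chr19:34583358-34583431, plus strand: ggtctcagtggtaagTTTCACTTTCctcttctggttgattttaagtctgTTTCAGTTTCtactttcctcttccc
Gbp3, chr3:142559984-142560029, plus strand: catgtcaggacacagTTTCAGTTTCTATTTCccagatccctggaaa
Igtp, chr11:58199507-58199546, plus strand: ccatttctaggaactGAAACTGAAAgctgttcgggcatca
Irgm2, chr11:58214898-58214937, plus strand: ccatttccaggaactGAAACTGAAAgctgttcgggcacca
Trim30a, chr7:104465205-104465244, minus strand: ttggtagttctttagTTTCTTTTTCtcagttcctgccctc
Igtp and Irgm2 are immunity-related GTPase genes and Gbp3 is a guanylate-binding protein gene, all induced by interferon; they rose by 2.23, 2.62 and 2.56, and Ifit3, a relative of Ifit1, rose by 2.21. The full NFI site, TTGGC and GCCAA with any 5 bases between, was in the promoters of 12 of the 27025 genes and of 0 of the 10 matched genes among the 12 largest rises. The shorter NFI site TTGGCA, which is inside some full sites, was in 2 of those 10, Prelp and Vegfd, and in 16.1% of all genes in the table.

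Antigen presentation moved less. Of 15 MHC class I genes 6 rose, with H2-K1, a class I heavy chain, at 0.70 ± 0.13, and H2-T24 fell by 0.70. This count rested on single arrays: it was 2 when the array labelled 3583T3 Nfib replicate 2 was left out, 1 without 3583T3 control replicate 1 or either Nfib array of 3151T4, and 3 without 3151T4 control replicate 4. H2-T24 was no longer called without 5 of the 8 arrays (-0.71 to -0.59), namely 3583T3 control replicate 2 and the 4 arrays of 3151T4.

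The interferon change in 3583T3 was larger on the array labelled Nfib replicate 2 than on replicate 1. Relative to the control mean, the 27 interferon genes had a median change of 1.56 on 3583T3 Nfib replicate 1 and of 3.17 on replicate 2, and all 27 were further from control on replicate 2. Without the array 20 of the 27 were still called. Leukocyte genes called lower did not show this, with medians of -3.38 and -3.32, and 60 of 64 were still called. All genes called higher outside the leukocyte list, the 27 interferon genes included, had medians of 0.75 and 1.02 (332 of 460 still called). Those called lower outside that list had medians of -0.74 and -1.09 (242 of 371). In all 748 genes were called without the array, of which 638 were among the 900. The replicates differed by more than 2-fold in 570 genes in 3583T3 Nfib, against 40 in 3151T4 Nfib and 75 and 43 in the control pairs. The array correlated best with 3583T3 Nfib+Mycl1 replicate 1 (r = 0.990) and less with its own replicate (r = 0.979), and 3583T3 Nfib replicate 1 correlated best with the array labelled 3583T3 Nfib+Mycl1 replicate 2 (r = 0.989; all across 8777 genes, which are not independent replicates).

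**Figure D3:**
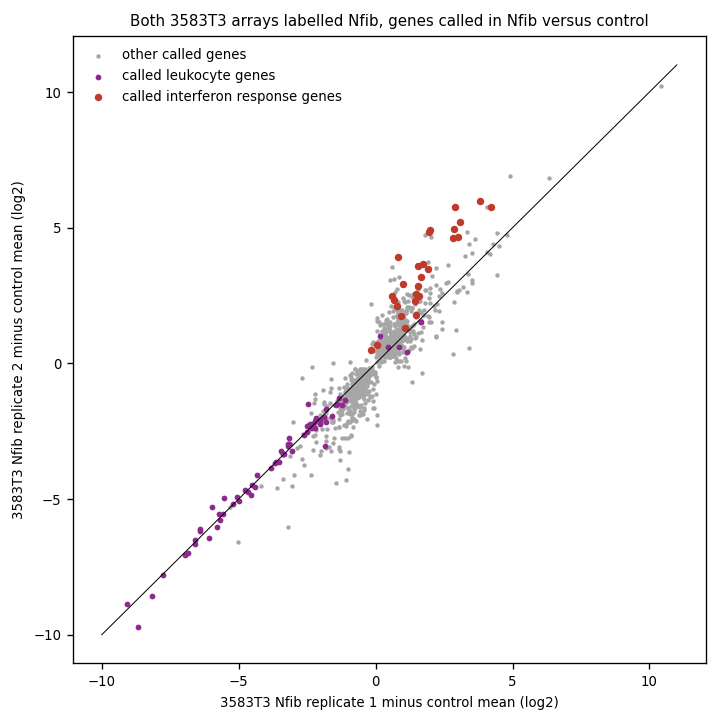
Change from the control mean (log2) on 3583T3 Nfib replicate 1 (x axis) and replicate 2 (y axis) for the 900 genes called, 1 point per gene, with the line of equality. The 27 called interferon genes lie above the line, with medians of 1.56 and 3.17, while the leukocyte genes lie along it.

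Among the genes outside the leukocyte list that were also called against Mycl1 and had the same sign in both lines, the largest falls with all arrays included were of proteases, adhesion and neural genes. Mmp13, a collagenase, read 6.03, 5.07, 7.02 and 6.91 in control and 2.47, 2.58, 3.12 and 3.05 in Nfib cells (-3.45 ± 0.32, adjusted p = 6.5e-06), with 4.68 to 4.82 on the Mycl1 arrays. Car8, a carbonic anhydrase relative without enzyme activity, read 8.65, 7.91, 8.57 and 9.42 against 6.12, 5.37, 3.99 and 4.62 (-3.61 ± 0.49). Ptprz1, a receptor phosphatase of neural cells, read 11.30, 11.31, 6.83 and 6.69 against 9.08, 8.69, 2.71 and 2.82 (-3.21 ± 0.31). In each of the 3 genes every Nfib array was below both control arrays of its line, and in Mmp13 and Car8 below all 4. Bex1, a small protein of neurons, read 11.49, 10.97, 6.96 and 7.02 in control and 8.21, 9.05, 4.37 and 4.79 in Nfib cells (-2.50 ± 0.46). The delta-catenin gene Ctnnd2 (-2.61 ± 0.44), the membrane protease gene Mmp17 (-3.25 ± 0.63, and -2.47 without the array labelled 3583T3 Nfib replicate 2) and the stromelysin gene Mmp10 (-2.55 ± 0.59) fell as well. Mmp10 read 3.74 and 5.96 on the 3583T3 Nfib arrays against 6.25 and 5.91 in control, so the array labelled replicate 2 did not show the fall.

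The other genes of this kind were Aif1l, an actin-binding protein (-2.73 ± 0.47), Cytip, a partner of cytohesins (-2.61 ± 0.52), Padi2, which converts arginine to citrulline (-2.57 ± 0.27), and Sfn, the 14-3-3 sigma protein (-2.47 ± 0.49). Sfn read 7.68, 8.12, 4.72 and 4.64 in control and 4.51, 3.63, 3.64 and 3.52 in Nfib cells, so the fall was mainly in 3583T3.

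**Figure D4:**
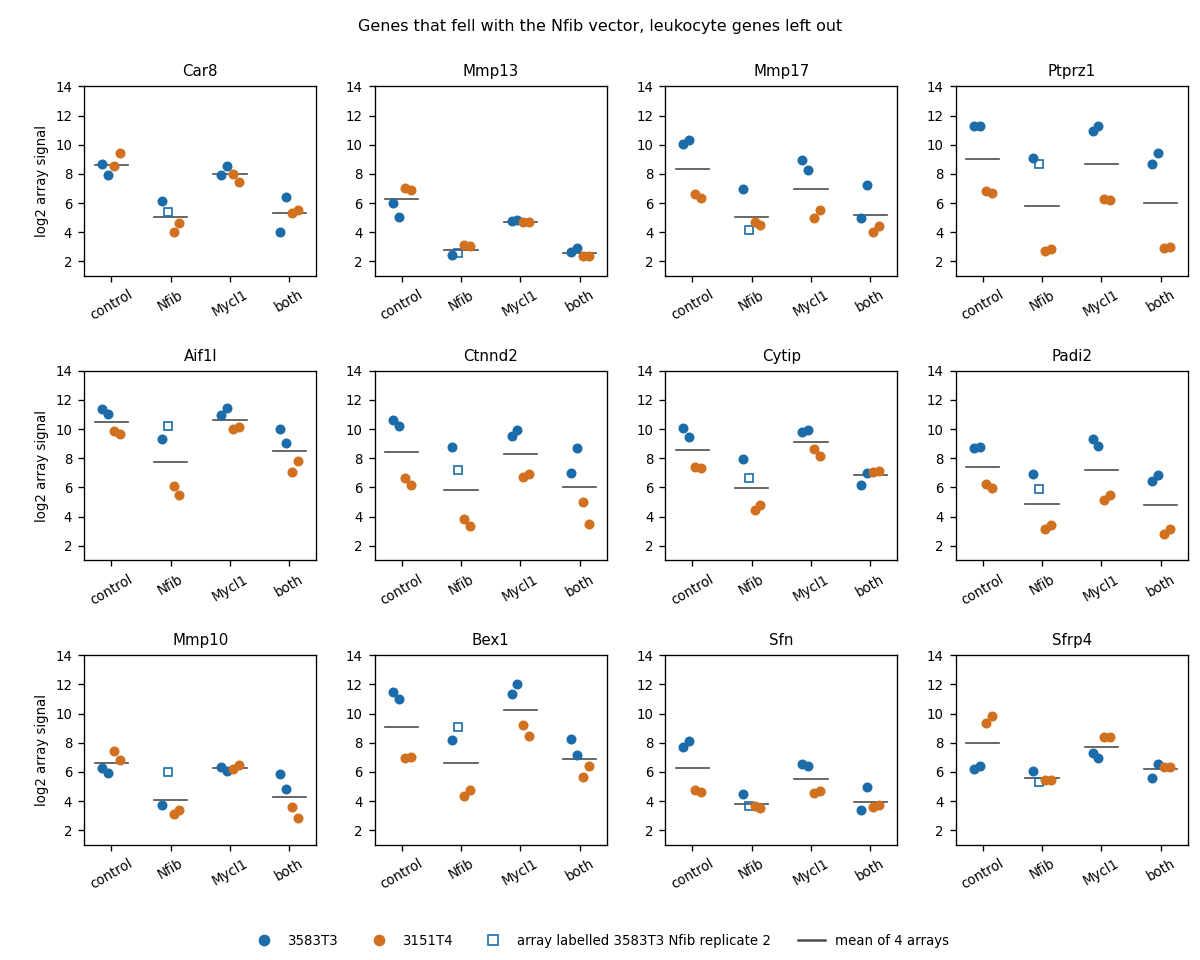
Log2 array signal (y axis) of the 12 largest falls outside the leukocyte list, among genes also called against Mycl1 and of the same sign in both lines, by vector (x axis; both is Nfib+Mycl1), 1 point per array, with the mean of 4 arrays as a line and the array labelled 3583T3 Nfib replicate 2 as an open square. Mmp13 is between 5.07 and 7.02 on control arrays, between 4.68 and 4.82 on Mycl1 arrays and between 2.47 and 3.12 on Nfib arrays.

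Some epithelial and contractile genes fell. Among 23 junction and keratin genes of epithelia 7 fell, 1 rose and 15 did not pass, with a median change of -0.74. Dsp, a desmosomal linker of keratin filaments, read 10.54, 10.17, 9.49 and 9.63 in control and 9.14, 9.10, 6.25 and 6.30 in Nfib cells (-2.26 ± 0.35, adjusted p = 0.00076), and the keratin gene Krt19 read 12.13, 12.54, 10.08 and 9.39 against 11.55, 10.88, 7.81 and 7.81 (-1.52 ± 0.26). The desmosomal genes Pkp2 (-0.77 ± 0.15) and Jup (-1.48 ± 0.33) fell too, and Pkp1 of the same family rose. Of 13 smooth muscle contractile genes 7 fell and 6 did not pass, with a median change of -1.36; 3 of the 7 were also called against Mycl1. Tgfb1i1, a focal adhesion protein, fell by 1.55 and the thin filament gene Lmod1 by 1.36, with a difference of -1.34 between Mycl1 and control. Leaving out 3583T3 control replicate 2 gave 4, leaving out 3151T4 Nfib replicate 4 gave 3, and leaving out the array labelled 3583T3 Nfib replicate 2 gave 5.

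Genes of the cell cycle, MYC target and neuroendocrine lists were called no more often than all genes. Of the 60 genes listed as MYC targets or for ribosome biogenesis 1 rose and 0 fell. Of 45 mitotic genes 1 rose and 0 fell, both shares under the 10.3% of all genes. Of 43 genes of DNA replication 3 rose and 1 fell, a share near that of all genes. The MYC target list went opposite ways in the 2 lines, which the count over both lines does not show. Its median level was 10.21 and 10.22 in 3583T3 control cells and 10.45 and 10.76 with Nfib, and in 3151T4 it was between 9.81 and 9.90 in control cells and between 9.37 and 9.48 with Nfib. The control and Nfib arrays of a line did not overlap, which says little with 2 arrays on each side. The median levels of the endothelial, MHC class I and axon guidance lists also went opposite ways in the 2 lines without overlap. For the MYC target list the median changes were 0.27 in 3583T3 and -0.33 in 3151T4, a difference that was not tested for the list. The rise of Shmt1, the MYC target, was not called without either 3583T3 control array, the array labelled 3583T3 Nfib replicate 2, either 3151T4 control array or 3151T4 Nfib replicate 3, and that of Ccnb2, the mitotic cyclin, not without any of the 4 arrays of 3151T4. Of the S phase genes Pold2, a subunit of DNA polymerase delta, rose by 0.68 ± 0.15, and Ccne1, cyclin E1, fell by 0.87 ± 0.20, a call that ended without 3583T3 control replicate 2 (-0.80). The number that rose was 1 without the array labelled 3583T3 Nfib replicate 2 or any of the 4 arrays of 3151T4. Of 13 neuroendocrine genes Uchl1, a deubiquitinase of neurons, fell by 1.73 and 12 did not pass; 3 fell without 3583T3 Nfib replicate 1 and 2 without replicate 2. In signalling by TGF-beta and its relatives, Inhba, a subunit of activin, fell by 1.72 ± 0.28. Fstl3, an inhibitor of activin, fell by 1.60 ± 0.22. Tgfbr3, a TGF-beta co-receptor, and the ligand gene Bmp4 rose by 1.88 ± 0.28 and 1.15 ± 0.20. Of 42 genes of that list 2 rose and 5 fell, against 5.3% of all genes higher and 4.96% lower. Without the array labelled 3583T3 Nfib replicate 2, 4 rose. Among 28 apoptosis genes the proapoptotic BH3-only genes Pmaip1 (-2.29 ± 0.28) and Bik (-2.20 ± 0.32) fell. The caspase genes Casp4 and Casp12 rose by 1.90 ± 0.45 and 0.76 ± 0.18, calls that ended without 3151T4 Nfib replicate 3 (1.57 to 1.64 for Casp4, where replicate 4 did the same, and 0.66 to 0.71 for Casp12, where either 3583T3 control array did).

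Some calls outside the leukocyte list did not separate Nfib from Mycl1 cells. Srgn, a proteoglycan of blood cell granules, fell most among them and read 2.82, 2.85, 2.56 and 2.36 with Nfib and 2.71, 2.74, 2.58 and 2.42 with Mycl1, against 7.84, 8.45, 6.37 and 6.20 in control (-4.57 ± 0.36; Nfib versus Mycl1, adjusted p = 0.96). Its levels were ordered like those of the leukocyte genes above, although Srgn is not on the list. Nppb, a natriuretic peptide gene, fell by 2.73 ± 0.56 and Bst1, an ectoenzyme, by 2.69 ± 0.51. Moxd1, a monooxygenase relative, fell by 2.67 ± 0.63 and was not called without 3151T4 control replicate 3 or 3151T4 Nfib replicate 4 (-2.37 to -2.35). Myh11, the smooth muscle myosin heavy chain, changed by -2.94 ± 0.90 (adjusted p = 0.049) and was no longer called without 5 of the 8 arrays (-3.29 to -2.27), the 4 of 3583T3 and 3151T4 Nfib replicate 4. The water channel gene Aqp1 (2.29 ± 0.66), the endopeptidase gene Phex (2.01 ± 0.61), the ribonuclease gene Ang2 (1.81 ± 0.53) and the collagen gene Col3a1 (1.78 ± 0.49) rose. Aqp1 and Phex were each not called without any of 6 arrays, the 4 control arrays and 3151T4 Nfib replicates 3 and 4 (1.74 to 2.50 and 1.50 to 2.07). Ang2 was not called without any 3583T3 array or 3151T4 Nfib replicate 4 (1.40 to 1.91), and Col3a1 without either control array of 3583T3, either Nfib array of 3151T4, or the array labelled 3583T3 Nfib replicate 2 (1.39 to 1.90).

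The response differed between lines for 601 of 8777 genes (6.85%) by the interaction in a model with 8 means. Car9, a carbonic anhydrase induced by low oxygen, read 3.31, 3.61, 2.70 and 2.72 in control, 3.33 and 3.03 in 3583T3 with Nfib and 10.88 and 10.81 in 3151T4 with Nfib. The homeobox gene Lhx8 and the proteoglycan gene Epyc likewise reached 9.35 or more on the 3151T4 Nfib arrays alone among these 8. In the other direction, Postn, a matricellular gene, read 5.14 and 4.84 in 3583T3 control cells and 11.32 and 11.84 with Nfib, and was already at 12.33 and 12.50 in 3151T4 control cells. Ptx3, a soluble pattern receptor, and Hoxa10 were likewise low in 3583T3 control cells and high in those of 3151T4. The stem cell antigen gene Cd34 went from 4.10 and 4.84 to 8.89 and 9.65 in 3583T3, and from 6.33 and 6.23 to 4.83 and 4.65 in 3151T4. Cd74, the class II invariant chain, was on the leukocyte list and went from 10.51 and 11.65 to 3.33 and 3.29 in 3583T3, whereas in 3151T4 it read 9.04 and 8.85 in control and 8.61 and 8.52 with Nfib. In Mycl1 cells of 3151T4 Cd74 read 5.31 and 5.61.

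**Figure D5:**
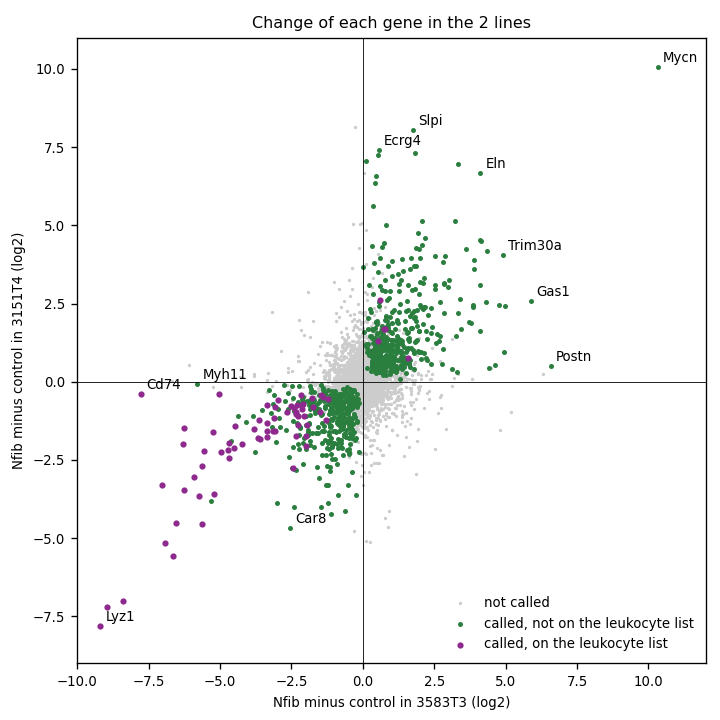
Change with Nfib (log2) in 3583T3 (x axis) and 3151T4 (y axis), 1 point per gene for the 8777 tested, with genes called in Nfib versus control in colour. Eln and Trim30a rose in both lines, Slpi rose more in 3151T4, Postn rose more in 3583T3, and the called leukocyte genes that fell lie in the lower left.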

How the data were processed

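Gene expression was measured on 16 Affymetrix arrays, of which 8 enter the main comparison. The deposited table holds log2 signals, 1 per probe set and array; the submitters' processing notes name GCRMA 2.20.0 and R 2.11.0 as the tools the authors used, and that the scale is log2 was read from the values. GCRMA corrects background by probe sequence and normalizes by quantiles, so a change of most genes would not be seen. Of 22690 probe sets, 20380 had 1 gene symbol in the platform annotation, and 20351 of these matched the RefSeq gene table.

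Where a gene had several probe sets, that of highest mean was kept, if log2 exceeded 4 on at least 2 arrays. limma 3.58.1 (R 4.3.3; lmFit, eBayes with trend) was fitted to the 16 arrays, with vector (4 levels) and line as terms; line differences came from a model with 8 means. The fit was tested on simulated data. The number of arrays limits the precision.

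The members, lists and naming rule were chosen with earlier results of these data known. The rule named all probe sets of Nfib, Mycl and Mycn; the 12 largest rises and falls with the same sign in both lines, outside the leukocyte list and also called against Mycl1; the 6 largest leukocyte falls; the 5 largest rises and falls not called against Mycl1; up to 4 called members per list, of which the text gives part; and the 5 largest line differences in each direction. Lists not described in the text are axon guidance (6 of 25 higher, 5 lower), Notch (0 and 2 of 19), mesenchymal factors (6 and 1 of 25), Hox (4 and 0 of 14), glial genes (3 and 0 of 20), cell cycle inhibitors (1 and 1 of 24), cholesterol synthesis (1 and 0 of 19), glycolysis and hypoxia (4 and 1 of 30) and NFI and MYC families (1 and 0 of 14). Among all genes 5.3% were higher and 4.96% lower.

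Whether replicate numbers pair samples was checked by correlating deviations from the group means. Control and Nfib arrays of equal number gave 0.07 in 3583T3 and 0.28 in 3151T4, so they were not treated as paired. Deviations from means of 2 arrays cannot exclude pairing.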

Additional observations from a re-analysis of the deposited data

Results flagged for a closer look

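Among the 4 Nfib arrays, 1 array lay far from the other 3 for 4 named features. On 3583T3 Nfib replicate 1 the values were 4.50 for Hoxb4, 4.51 for Sfn and 4.17 for Tap1. On the array labelled 3583T3 Nfib replicate 2 the value was 10.22 for the Mycl probe set 1422087_at. Hoxb4, Sfn and Tap1 came from 206 groups of 4 that were examined, and the Mycl probe set from further groups. Chance flags about 1 in 20 groups of like arrays. Each group here holds arrays of 2 lines, where that rate need not hold.

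Of 103 named genes, 39 had a response that differed between the lines by the interaction test (limma, adjusted over 8777 genes), against 6.85% of all genes. Of the 39, 10 were named for that very difference, namely Car9, Cd74, Epyc, Ecrg4, Lhx8, Cd34, Hoxa10, Postn, Ptx3 and Actg2, so the share among named genes is no result. The change in 3151T4 minus the change in 3583T3 (log2) was positive for 25 of them. These differences were Car9 8.41, Cd74 7.39, Epyc 6.94, Ecrg4 6.85, Lhx8 6.73, Slpi 6.29, Myh11 5.71, Bpifb1 5.49, Ces2g 3.62, Aqp1 3.35, Nppb 3.26, Bst1 2.80, Sfn 2.73, Eln 2.56, Phex 2.46, Tyrobp 2.04, Boc 1.92, Slit2 1.92, Hopx 1.89, Plvap 1.77, C1qb 1.77, Egln3 1.75, Prrx1 1.49, Sox9 1.29 and Flt1 1.15.

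The difference was negative for the other 14. These differences were Cd34 -6.35, Hoxa10 -6.16, Postn -6.07, Ptx3 -6.05, Actg2 -5.52, Sfrp4 -3.51, Gas1 -3.32, Ang2 -2.99, Col3a1 -2.71, Aif1l -2.56, Dsp -2.06, Ptprz1 -1.57, Pmaip1 -1.54 and Inhba -1.48.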

How the results depend on the processing

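Of the 103 named genes, none changed direction in any alternative run that tested it. Other genes that the text mentions, and the Nfib and Mycl probe sets, were not checked for this. The 900 genes of Nfib versus control became 1954 with array weights, 1553 with 8 means and 18 with the replicates of each line averaged, and lay between 545 and 1065 with 1 array left out. The share called higher was 51.7% with all arrays and 22.2% with averaged replicates. Averaging ended the calls of 89 of 98 called named genes. It left 8 of the 64 leukocyte falls by limma. It left 0 called interferon, fibroblast, matrix, junction and contractile genes, with 27 (interferon), 11 (fibroblast) and 15 (matrix) higher and 8 (junction) and 7 (contractile) lower at an unadjusted p under 0.05. The 1916 genes of Nfib versus Mycl1 became 2935 with every probe set, 3847 with array weights and 1084 with only the 8 arrays compared (60.1% higher, against 49.2%). With averaged replicates limma called 0 (1809 at an unadjusted p under 0.05), and with 1 array left out between 889 and 2495, the latter without 3583T3 Nfib replicate 2. The 601 genes of the Nfib response by line lay between 343 and 901 with 1 array left out. With the replicate number as a block 627 genes were called in Nfib versus control and 1480 in Nfib versus Mycl1. In that run 14 of 98 called named genes lost the call. The main fit did not treat the numbers as pairs. Without both arrays that go against their Mycl label the counts were 841 (Nfib versus control), 2597 (Nfib versus Mycl1) and 668 (Nfib response by line). The other filters and normalizations kept each count within 1.5 times. The causes were not tested. Levels near 2 are the floor, where differences are not measured.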
